A study of Mus musculus with 7 samples.

Results

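The core circadian clock genes were examined for open chromatin in muscle stem cells (MuSCs), which express Pax7 and repair skeletal muscle. The 10 genes are Nr1d1, Nr1d2, Per1, Per2, Per3, Cry1, Cry2, Arntl (also called Bmal1), Clock and Dbp, out of 21436 protein-coding genes with a known strand. For each gene, every peak was taken that overlapped its RefSeq span on mm10 with 10 kb added on both sides, here called the locus. Overlapping peaks of the 7 libraries were merged into regions, which gave 63 regions at the 10 loci out of 95163 in the genome. The rule itself uses no measured value.

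ATAC-seq tags open chromatin with the Tn5 transposase, and each library came from 5000 MuSCs sorted straight from the hindlimb. The Nedd4L-cKO group had 4 libraries and the WT group 3. The mouse line is Nedd4L fl/fl Pax7 cre/+ on a C57BL/6 background, in which exon 15 of the E3 ubiquitin ligase gene Nedd4L, a part of the catalytic domain, is removed in cells that express Cre from Pax7. The libraries came from male mice aged 5 to 6 weeks, 4 Nedd4L-cKO and 3 WT mice. The genotype of the WT mice beyond that name and the hour of the day at which cells were taken are not given in the sources used here. The part of the hour in the results was not tested. The deletion itself was not checked, because peaks do not measure the transcript and the exon was not located on mm10.

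In the molecular clock, CLOCK pairs with the ARNTL protein and activates genes that carry E-boxes, among them the period genes Per1, Per2 and Per3, the cryptochromes Cry1 and Cry2, and Dbp. The period and cryptochrome proteins form complexes that hold CLOCK and ARNTL back, which closes the main loop. Nr1d1 and Nr1d2 encode REV-ERBα and REV-ERBβ, nuclear receptors that repress Arntl through ROR elements, and Dbp encodes a factor that activates genes with D-boxes.

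MACS2 read 28353538 to 42431517 tags per library, kept 14429374 to 20084685 after its filter and called 69302 to 79158 peaks. The loss was uneven, with 15041837 of 36230423 tags kept in Nedd4L-cKO replicate 1 and 15084838 of 29322042 in replicate 2. The part of this loss in the results was not tested. WT replicate 3 was run on lane 2 and the others on lane 1. Promoter peaks were called at 9 of 9 MuSC markers in all 7 libraries, and at 0 of 5 immune markers in any. Among 4 endothelial, 4 fibro-adipogenic and 2 neuronal markers, the promoters of Kdr, Col1a1, Dpt and Syt1 were called in all 7 libraries and the others in none. Their part in the results at the clock genes was not tested.

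The stretches before the start sites of 6 clock genes are shown because they lay wholly inside a peak in all 7 libraries and hold letters known from clock gene promoters. They are RefSeq sequences on GRCm38.p6, the assembly of mm10, in the direction of transcription. Capitals mark the E-box CACGTG, the E′-box CACGTT, the ROR and REV-ERB site AGGTCA and the D-box TTATGTAA or TTACGTAA, each read on both strands. The stretch of Nr1d1 is on the minus strand at chr11:98775378-98775627, that of Nr1d2 on the minus strand at chr14:18239107-18239356, and that of Per1 on the plus strand at chr11:69098699-69098948. The stretch of Per3 is on the minus strand at chr4:151044708-151044915, that of Cry1 on the minus strand at chr10:85185055-85185304, and that of Cry2 on the minus strand at chr2:92434086-92434319. Those of Per3 and Cry2 stop at the outer end of the gene span, 43 and 17 bases before the start site in the RefSeq table.
Nr1d1: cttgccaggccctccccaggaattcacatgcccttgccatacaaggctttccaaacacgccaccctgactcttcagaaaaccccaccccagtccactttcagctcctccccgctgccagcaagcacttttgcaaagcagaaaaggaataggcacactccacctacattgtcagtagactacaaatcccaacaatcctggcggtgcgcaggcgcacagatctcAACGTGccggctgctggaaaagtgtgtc
Nr1d2: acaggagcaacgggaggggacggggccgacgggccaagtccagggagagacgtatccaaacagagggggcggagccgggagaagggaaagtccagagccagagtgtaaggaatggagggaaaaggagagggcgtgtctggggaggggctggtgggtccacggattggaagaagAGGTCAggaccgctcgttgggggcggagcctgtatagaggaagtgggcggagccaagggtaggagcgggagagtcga
Per1: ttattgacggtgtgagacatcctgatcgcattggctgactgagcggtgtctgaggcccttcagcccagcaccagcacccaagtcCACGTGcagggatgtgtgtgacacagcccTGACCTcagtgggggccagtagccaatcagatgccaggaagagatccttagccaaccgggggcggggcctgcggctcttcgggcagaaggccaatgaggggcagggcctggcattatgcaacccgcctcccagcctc
Per3: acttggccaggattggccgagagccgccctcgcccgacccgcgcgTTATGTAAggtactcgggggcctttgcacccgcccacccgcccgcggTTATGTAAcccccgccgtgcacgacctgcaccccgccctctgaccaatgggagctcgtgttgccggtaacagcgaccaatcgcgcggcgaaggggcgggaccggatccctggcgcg
Cry1: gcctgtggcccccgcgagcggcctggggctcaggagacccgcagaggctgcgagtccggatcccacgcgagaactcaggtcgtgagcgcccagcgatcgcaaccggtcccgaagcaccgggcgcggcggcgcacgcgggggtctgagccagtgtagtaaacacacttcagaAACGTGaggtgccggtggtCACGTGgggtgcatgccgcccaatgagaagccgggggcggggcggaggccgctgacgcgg
Cry2: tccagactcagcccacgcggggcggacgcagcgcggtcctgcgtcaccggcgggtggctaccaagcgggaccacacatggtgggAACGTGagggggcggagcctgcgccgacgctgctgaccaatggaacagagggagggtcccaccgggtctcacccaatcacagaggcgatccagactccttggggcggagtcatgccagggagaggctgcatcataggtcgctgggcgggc

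Motifs were searched in RefSeq windows from 250 bases before to 50 after each start site. The table held 13 windows for 9 of the 10 genes, with Per2 as the gene without an entry. E-boxes were found in 2 of the 13 windows, 60 bases before the start of Cry1 and 166 bases before the inner start of Per1, against 7.15% of all 32851 windows of the table. E′-boxes were found in 3 of the 13 windows, at Nr1d1, Cry1 and Cry2, against 4.68% of all windows. That of Nr1d1 begins 28 bases before its start. The AGGTCA site occurred in windows of Nr1d2, Per1, Clock and Arntl, against 16.3% of all windows, and that of Arntl lies 31 bases after the start at chr7 position 113207511. D-boxes occurred at Per3 alone among the 9 genes, in 1 of the 13 windows against 1.06% of all windows. There were 2 copies, 205 and 158 bases before the start of Per3. The cAMP response element TGACGTCA was in no window of the 9 genes and in 1.79% of all windows.

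All 10 clock genes had a peak within 1 kb of a start site in all 7 libraries. Such a promoter call in every library was made for 13392 of 21436 protein-coding genes, or 62.5%, and 32.2% of genes had none in any library. For Per1, the outer start at chr11 position 69095108 and the inner starts at 69098949 and 69100152 were each called in 7 libraries. For Arntl, both RefSeq starts, at chr7 positions 113207465 and 113207511, were called in 7 libraries, while the outer end of the span at 113178471 was called in 0. For Clock, the starts at chr5 positions 76304548 and 76304792 lay under a peak in 7 libraries. The third Clock start, at 76303502, lay under a peak in 0 libraries, next to the edge of the region.

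The start-site regions of the clock genes had a high pileup, which is the average tag coverage of a peak, relative to the other peaks of the same library. Pileup is not scaled to depth, so each peak was given a percentile among all peaks of its library. Over the 7 libraries, the median of the 10 genes' mean pileup percentile was 98.4, against 86.6 over the 13555 promoters that touched a region called in all libraries. By fold enrichment, a ratio to the local background, the same medians were 62.4 and 78.8, so the clock genes stood lower there. There were 11 start-site regions, since Per1 has an outer and an inner one. With Per1 taken by its inner starts, Nr1d1 stood highest and Per3 lowest, at a mean percentile of 89.8. The outer start of Per1 overlapped Nr1d1 in its range. The ranges over the 7 libraries did not overlap between Nr1d1 and Nr1d2, between Nr1d2 and Cry2, which came next, or between Cry1 and Per3 at the lower end. The neighbours in between, in the order Cry2, Per1 by its inner starts, Dbp, Arntl, Per2, Clock and Cry1, had overlapping ranges. The plot of the start-site regions shows these values.

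**Figure D1:**
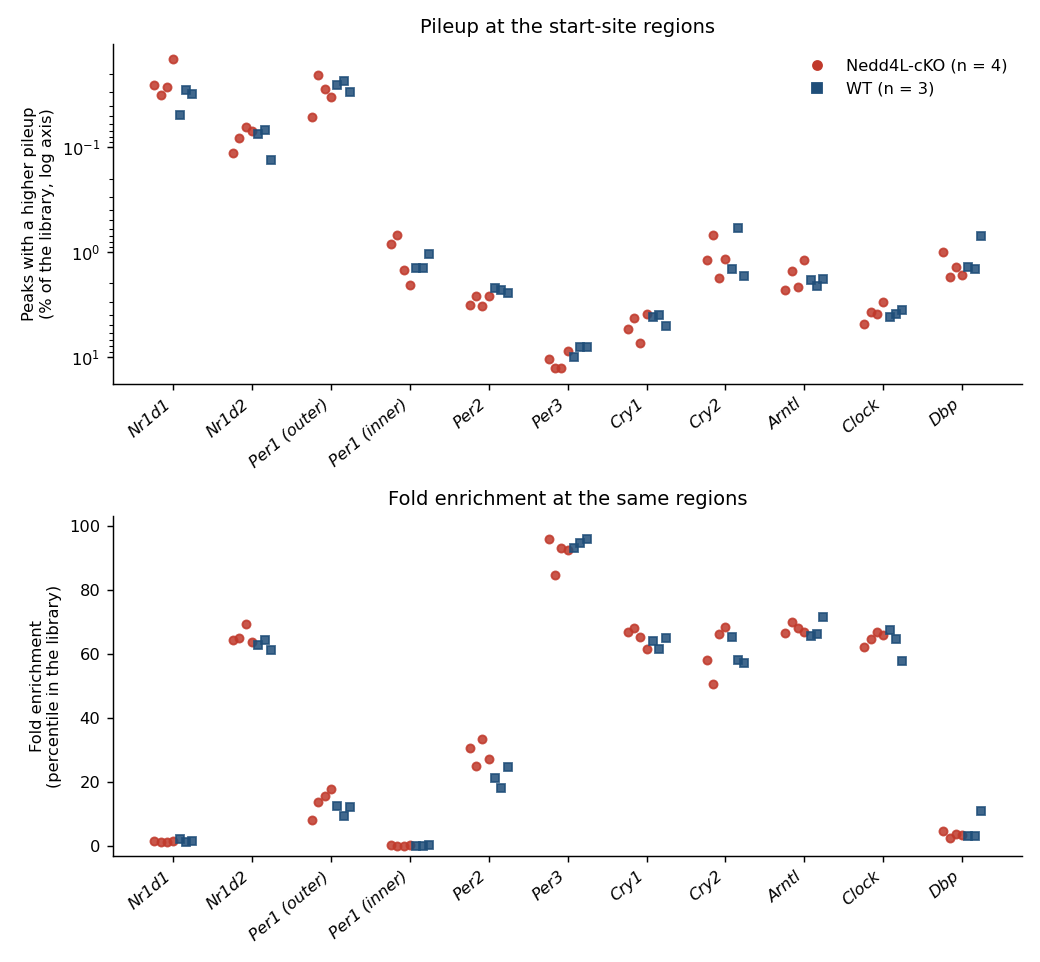
Upper panel, the percentage of peaks of the same library with a higher pileup than the start-site region (log axis, inverted so that the highest pileup is at the top), and lower panel, the percentile of fold enrichment of the same regions. Each point is 1 library, red circles are 4 Nedd4L-cKO and blue squares 3 WT libraries, and Per1 has an outer and an inner start. Nr1d1, Nr1d2 and the outer start of Per1 are at the top of the upper panel, while Nr1d1, Per1 and Dbp are at the bottom of the lower one.

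The region at the start of Nr1d1, chr11:98772630-98776150, held one of the highest peaks of every library. Its pileup was 95.4, 85.3, 92.2 and 105.8 in Nedd4L-cKO replicates 1 to 4, and 89.2, 94.4 and 87.3 in WT replicates 1 to 3. These pileups ranked 18, 23, 19 and 12 from the top of the Nedd4L-cKO lists and 36, 21 and 23 from the top of the WT lists. The genotypes overlapped, and the peak ranked lowest in WT replicate 1. The peak covered 3464, 3466, 3479 and 3492 bp in the Nedd4L-cKO libraries and 3418, 3487 and 3444 bp in the WT libraries, so that its length varied by less than 100 bp. A start of the RefSeq gene Gm31862 lies in this region or within 1 kb of it, and its part in the peak was not tested.

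By fold enrichment, the ratio of pileup to the background that MACS2 set for the surroundings, the same Nr1d1 peak was near the bottom. Its fold was 2.17 to 2.30, at percentiles of 1.37 to 2.12 in the 7 libraries. Pileup divided by fold, which is about the background used, was 37.9 to 48.7 at this peak, while the median over all peaks of a library was 3.52 to 4.41. With no control library, MACS2 takes that background from the library's own tags, over 10 kb around the peak where these are denser than the genome. Among the genes other than the clock genes whose promoters were most like Nr1d1 in both percentiles over the 7 libraries were Midn and Tgif1, with mean absolute differences of 0.296 and 0.335 percentile points. Both also had a pileup percentile above 99 and a fold percentile below 3.

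The rest of the Nr1d1 locus held 3 more regions. One began 7.3 kb upstream of the start, at chr11:98782722-98784150, and was called in 7 libraries. The other 2 lay 6.4 and 7.8 kb downstream, inside the far end of the gene and just past it, and were called in all libraries but WT replicate 1. Their peaks were weak calls, with -log10 q between 1.45 and 3.16. The locus thus had 4, 4, 4 and 4 peaks in the Nedd4L-cKO libraries and 2, 4 and 4 in the WT libraries. The difference did not pass an exact two-sided permutation test (p = 0.429 with 35 splits), and with peaks of -log10 q of at least 5 alone the mean difference was 0.

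**Figure D2:**
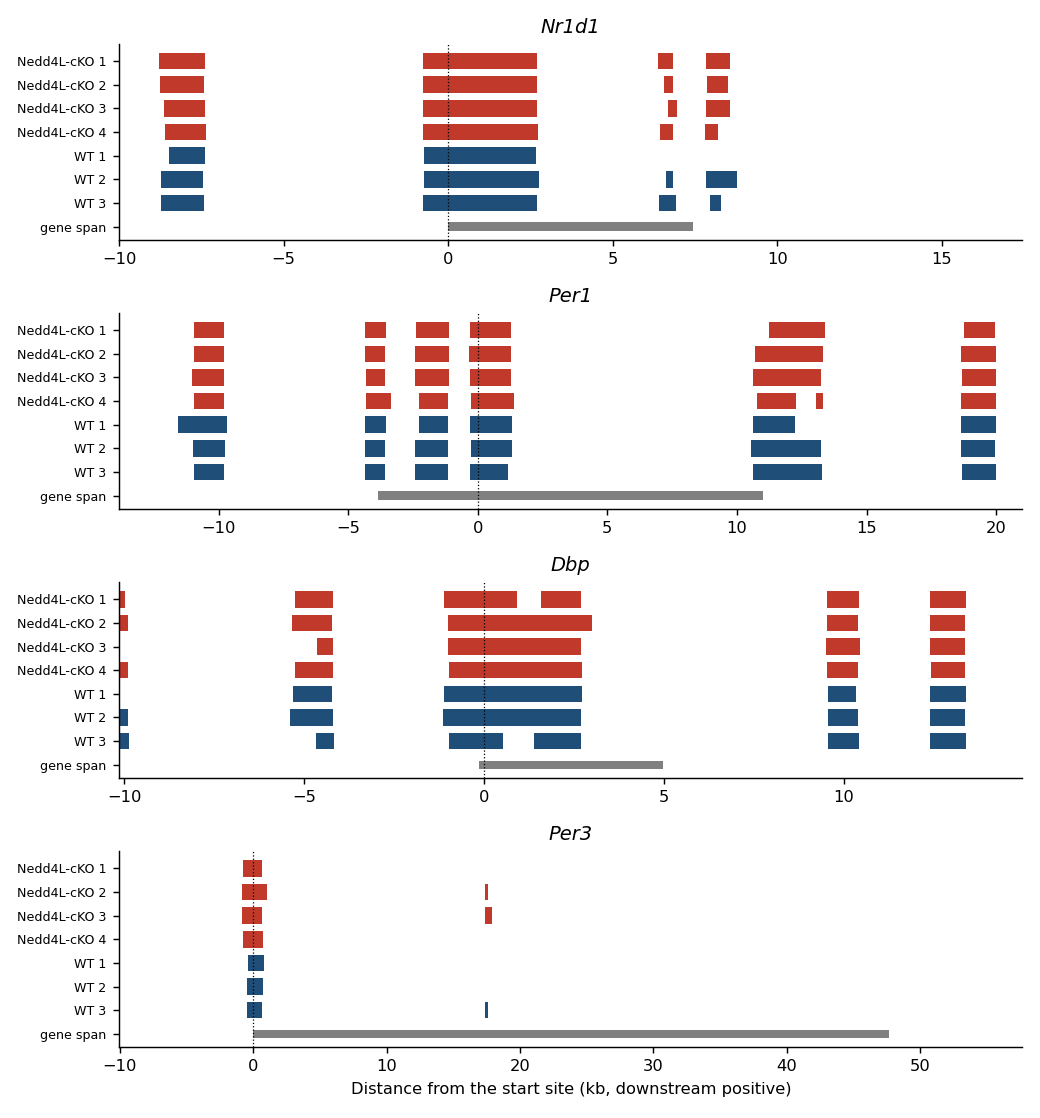
Peaks of each library at the loci of Nr1d1, Per1, Dbp and Per3, as bars along the distance from the start site in kb (downstream is positive, and for Per1 the first inner start is at 0), with the gene span in grey. Red bars are the 4 Nedd4L-cKO and blue bars the 3 WT libraries. The Nr1d1 peak at the start has almost the same ends in all 7 libraries, WT 1 lacks both small peaks near the end of the gene, and the Per3 peak reaches farther upstream in the Nedd4L-cKO libraries.

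Nr1d2, the close relative of Nr1d1, had a similarly high pileup at its start, with a fold that was not as low. Its region at chr14:18238074-18239622 had a pileup of 84.9, 76.9, 84.7 and 93.0 in the Nedd4L-cKO libraries and 86.2, 86.0 and 76.9 in the WT libraries, which overlapped. Its fold was 3.97 to 4.21, at percentiles of 61.3 to 69.2 among all peaks. Among the promoters that touched a region called in all libraries, Nr1d2 stood lower, at percentile 33.2 by fold, and Nr1d1 at 0.358. The other 2 regions of this 55051 bp locus were each called in 1 Nedd4L-cKO library.

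The 3 period genes differed widely from each other. Per1, which responds fast to many signals, had 6 regions, and all 6 were called in 7 libraries. The outer start of Per1 at chr11:69094582-69095619 ranked 15 to 36 from the top by pileup, at fold percentiles of 8.18 to 17.7. The inner starts, in chr11:69098626-69100358, had pileup percentiles of 97.9 to 99.3 and fold percentiles of 0.0845 to 0.367, the lowest fold of the 11 start-site regions. The -log10 q there was 3.58 to 5.47. With a minimum of 5 the inner starts of Per1 were called in 1 Nedd4L-cKO and 0 WT libraries, while its outer start was still called in 7.

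Per2 had 9 regions, 7 of them in all libraries, and its start-site region was chr1:91457806-91459913. The pileup percentile of this region was 96.8, 97.3, 96.7 and 97.3 in the Nedd4L-cKO libraries and 97.8, 97.7 and 97.6 in the WT libraries. The fold percentile was 30.6, 25.2, 33.5 and 27.4 in the Nedd4L-cKO libraries and 21.4, 18.1 and 24.6 in the WT libraries. The genotypes did not overlap in either measure, and they stood in opposite order, with WT higher by pileup and Nedd4L-cKO higher by fold. Of all regions called in all libraries, 3.22% did not overlap by pileup and 4.96% by fold. Neither difference passed limma's test, with an adjusted p of 1.00 for both.

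Per3 had a single region in all libraries, at its start at chr4:151043656-151045475, with a high fold where that of Nr1d1 was low. Its fold was 4.90 to 6.25, at percentiles of 84.7 to 96.0, and its pileup percentile was 87.1 to 91.9. The peak covered 1366, 1815, 1514 and 1517 bp in the Nedd4L-cKO libraries and 1202, 1167 and 1118 bp in the WT libraries, so that all Nedd4L-cKO peaks were longer than all WT peaks. Of all regions called in all libraries, 4.65% did not overlap in length. At Per3 the genotypes were apart at the upstream end, and no share over all regions was counted for the ends. The peak began 724 to 810 bp before the start in the Nedd4L-cKO libraries and 416 to 444 bp before it in the WT libraries. The downstream ends overlapped, at 641 to 1009 bp after the start in Nedd4L-cKO and 678 to 785 bp in WT. The farthest was that of Nedd4L-cKO replicate 2, the longest peak. A start of the RefSeq gene Gm38529 lies in this region or within 1 kb of it.

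**Figure D3:**
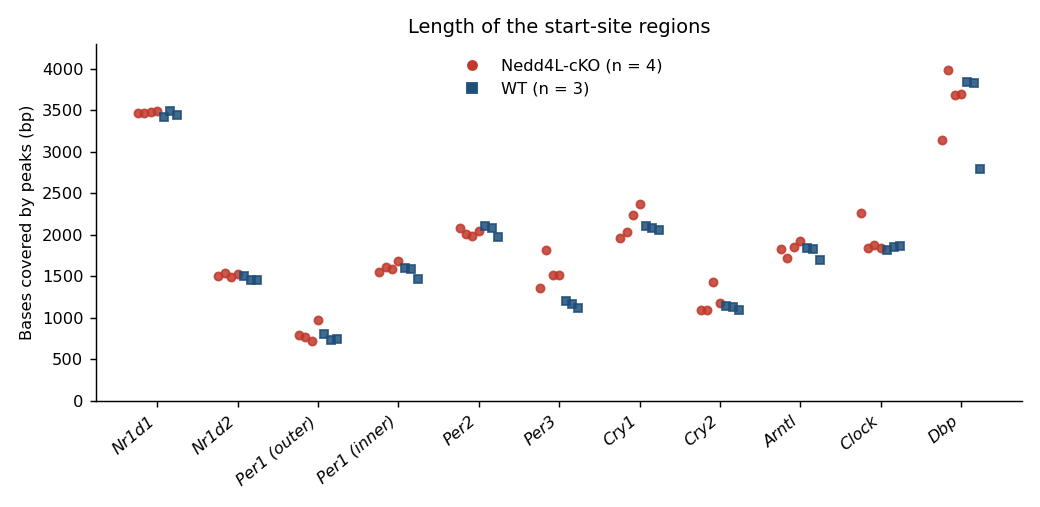
Bases covered by peaks in the 11 start-site regions, in bp, with 1 point per library (red circles 4 Nedd4L-cKO, blue squares 3 WT). The genotypes are apart at Per3 and overlap at the other 10 regions, and Dbp spreads most, from 2791 to 3985 bp.

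The repressors Cry1 and Cry2 had fold percentiles near those of Nr1d2. At Cry1, the start-site region chr10:85183642-85186033 had a pileup percentile of 92.6 to 96.1 and a fold percentile of 61.5 to 68.2. At Cry2, the region chr2:92433530-92434986 had a pileup percentile of 98.2 to 99.4 and a fold percentile of 50.7 to 68.3. Of the 8 regions at Cry2, 3 were called in all libraries.

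The activators Arntl and Clock had start-site regions of similar fold. At Arntl, the region chr7:113206554-113208497 had a pileup percentile of 97.7 to 98.8 and a fold percentile of 65.7 to 71.6. At Clock, the region chr5:76303510-76305835 had a pileup percentile of 95.1 to 97.0 and a fold percentile of 57.7 to 67.4. Arntl, the longest gene of the list with a span of 135656 bp, had 17 regions, 11 of them in all libraries, while Clock with a span of 95736 bp had 4, 2 of them in all libraries.

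Dbp, the output gene, has the shortest span at 5104 bp, and its start-site region chr7:45704112-45708232 reached over much of it. The region had a pileup percentile of 98.2 to 99.3 and a fold percentile of 2.47 to 10.9. It was 1 peak in 5 libraries and 2 peaks in Nedd4L-cKO replicate 1 and WT replicate 3.

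The loci differed in how densely peaks lay in them. Peaks per 10 kb had a median over the 7 libraries of 1.99 at Dbp, 1.72 at Per1, 1.46 at Nr1d1 and 1.26 at Per2, against 0.448 over all 21436 protein-coding loci. These 4 loci stood at median density percentiles of 99.2, 97.8, 94.6 and 90.0 of all loci. Clock, Nr1d2 and Per3 stood at 33.6, 28.5 and 26.7. The span sets the size of a locus, and short spans such as that of Dbp give the added 20 kb more weight, so neighbouring genes count in. Of the 52 regions away from the clock genes' own starts, 13 had a start of another RefSeq gene inside them or within 1 kb. Among these genes were Vamp2 at the Per1 locus, Hes6 at Per2 and Rpl18 and Sphk2 at Dbp. Over the regions called in all libraries, the median pileup percentile was 98.6 at the 11 start sites and 77.6 at the other 29.

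The first comparison of the genotypes asked whether regions were present or absent. Of the 63 clock regions, 40 (63.5%) were called in all 7 libraries, against 56.0% of all merged regions, and 7 (11.1%) were called in 1 library, against 14.7%. No clock region was called in all 4 Nedd4L-cKO and no WT library, against 66 of 95163 regions (0.0694%), and none in all 3 WT and no Nedd4L-cKO library, against 78 regions (0.082%). With a minimum -log10 q of 5, 1 clock region met the first pattern, the one at chr7:113269903-113271382 inside Arntl, against 28 of 46438 regions with a peak at that minimum (0.0603%). None of the clock regions met the second pattern, against 47 regions (0.101%). The -log10 q of the Arntl region was 6.04, 5.54, 6.20 and 5.90 in the Nedd4L-cKO libraries and 4.80, 4.59 and 4.84 in the WT libraries, on either side of that minimum.

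The number of peaks per locus and the bases covered were compared between the genotypes at the 10 loci. By the exact two-sided permutation test on group means, 0 of 10 loci reached the smallest p that 35 splits allow, 0.0286, for either measure. Over all protein-coding loci, 0.359% reached it for peaks and 1.25% for covered bases. With so few splits, an adjustment over 21436 loci leaves almost no room for a locus to pass, and a p that misses the threshold does not show that the loci were alike. The covered bases did not overlap between the genotypes at 2 of the 10 loci, against 2.85% of all loci. At Cry2 they were 5098, 5730, 4642 and 4436 bp in the Nedd4L-cKO libraries and 4341, 4388 and 4233 bp in the WT libraries (exact two-sided permutation p = 0.114). At Nr1d2 they were 1506, 2050, 1689 and 1530 bp in the Nedd4L-cKO libraries and 1499, 1459 and 1456 bp in the WT libraries (exact two-sided permutation p = 0.171). All Nedd4L-cKO libraries were above all WT libraries at both loci, and the closest pair was a few bases apart at Nr1d2. The 2050 and 1689 bp at Nr1d2 included peaks called in a single library, with -log10 q of 1.40 and 2.35. The start-site region of Nr1d2 alone overlapped, at 1489 to 1540 bp in Nedd4L-cKO and 1456 to 1499 bp in WT. The 10 loci together held 49, 52, 50 and 52 peaks in the Nedd4L-cKO libraries and 46, 49 and 51 in the WT libraries.

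Shifts in rank were tested in the 53245 regions called in all libraries, of which 40 were clock regions. Percentiles were turned into normal scores, in units of 1 SD of the ranks, and tested with limma and Benjamini-Hochberg adjustment over all 53245. None of the 40 regions passed an adjusted p of 0.05 by fold, pileup or length, and neither did any region of the genome (0% for each of the measures). At an unadjusted p under 0.05 there was 1 clock region of 40 by fold (3.92% of all regions), 0 by pileup (2.31%) and 2 by length (3.83%). The median difference, Nedd4L-cKO minus WT, over the 40 regions was 0.04 by fold against 0.02 over all regions, 0.00 by pileup against 0.00, and 0.04 in log2 length against 0.00. The genotypes did not overlap at 3 of 40 regions by pileup (3.22% of all regions), at 3 by fold (4.96%) and at 3 by length (4.65%).

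**Figure D4:**
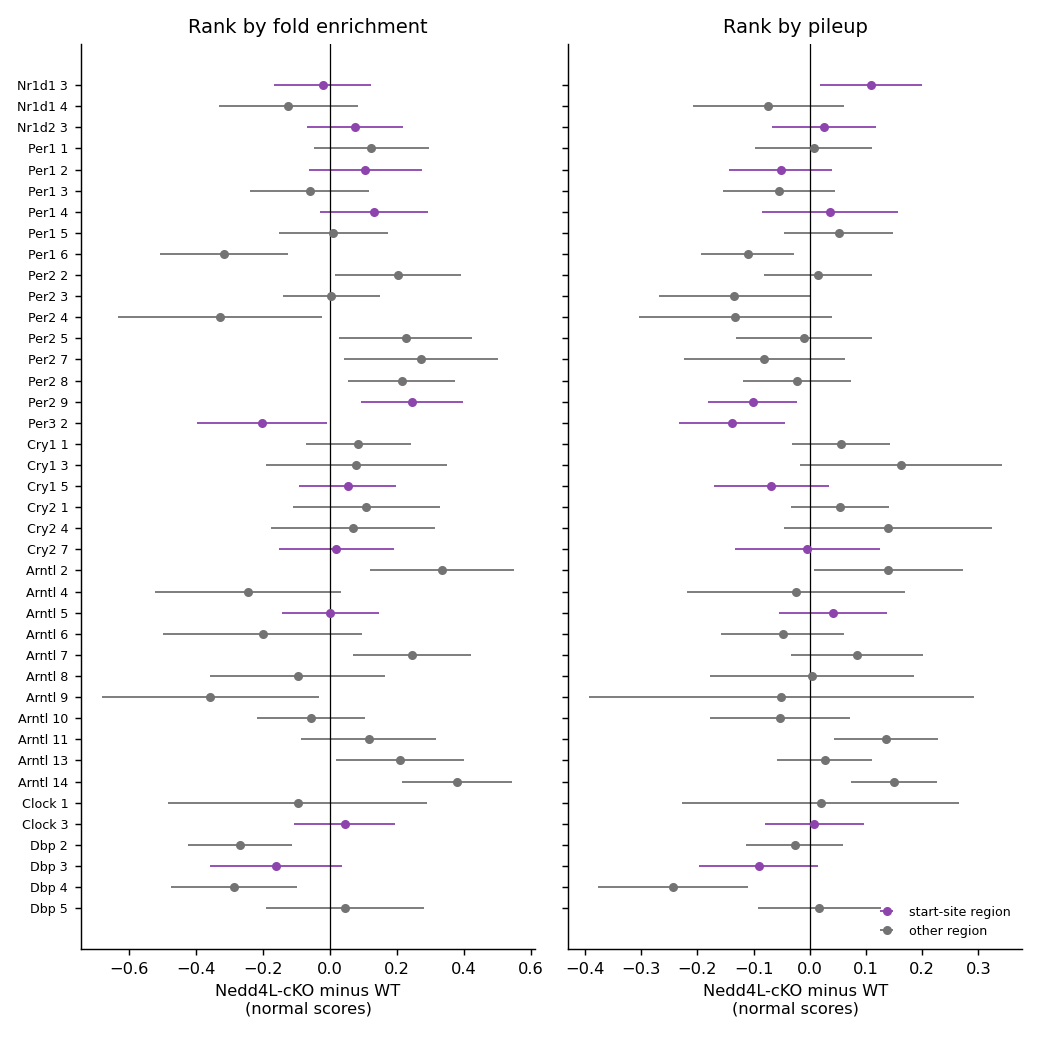
Difference in rank between the genotypes (Nedd4L-cKO minus WT, in normal scores, with the standard error of limma) at the 40 clock regions called in all 7 libraries, by fold enrichment on the left and by pileup on the right. Regions are numbered along the chromosome within each locus, and purple marks the 11 start-site regions. By fold 25 regions lie above and 15 below 0, and by pileup 20 lie on each side.

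None of the 11 start-site regions passed an unadjusted p of 0.05 by fold (p of 0.142 to 0.997) or by pileup (p of 0.178 to 0.974). By length 1 of the 11 did, that of Per3. In mean log2 length 10 of the 11 were higher in Nedd4L-cKO, as were 23 of the 40 clock regions. The share over all regions was not counted, so these counts do not show a direction particular to the clock genes. At Nr1d1 the difference was -0.02 by fold (SE 0.14) and 0.11 by pileup (SE 0.09), and adjusted p was 1.00 for both. The pileup difference at Nr1d1 was 0.06 without WT replicate 1 and 0.07 without Nedd4L-cKO replicate 4. A difference of the size of these errors could not be detected at this depth and number of libraries.

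The clock region with the lowest p by both ranks was the same Arntl region, 62.4 kb downstream of the start and inside the gene. Its fold percentile was 57.5, 58.7, 61.8 and 47.2 in the Nedd4L-cKO libraries and 39.4, 37.4 and 47.2 in the WT libraries. Its pileup percentile was 60.8, 61.4, 61.1 and 62.1 in the Nedd4L-cKO libraries and 55.7, 54.2 and 56.5 in the WT libraries. All Nedd4L-cKO libraries were above all WT libraries in both, in fold by 47.21 against 47.19 at the closest pair. The limma difference was 0.38 by fold (SE 0.16, adjusted p = 1.00) and 0.15 by pileup (SE 0.08, adjusted p = 1.00). It was the 1 clock region with an unadjusted p under 0.05 by fold, and under 11 of 15 alternatives there was none, among them the replicate block and leaving out WT replicate 1 or 2 or Nedd4L-cKO replicate 1, 2 or 3.

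The next regions by fold lay beside Dbp and Per1. The region upstream of Dbp at chr7:45699837-45701068 had a start of Car11 inside it or within 1 kb. Its fold percentile was 0.721, 1.19, 1.07 and 1.78 in the Nedd4L-cKO libraries and 2.256, 1.84 and 2.66 in the WT libraries, without overlap. Its difference was -0.27 (SE 0.16, adjusted p = 1.00 by limma). The region downstream of Per1 at chr11:69117584-69118955 differed by -0.32 in fold (SE 0.19, adjusted p = 1.00 by limma), with overlapping fold percentiles. Its pileup percentile was 87.5 to 90.3 in the Nedd4L-cKO and 90.4 to 91.3 in the WT libraries.

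By pileup, the next regions were downstream of Dbp and at the start of Per3. The region at chr7:45714744-45715676 had a start of Sphk2 inside it or within 1 kb. Its pileup percentile was 94.6, 89.9, 91.8 and 93.9 in the Nedd4L-cKO libraries and 97.4, 95.3 and 93.1 in the WT libraries, which overlapped. Its difference was -0.24 (SE 0.13, adjusted p = 1.00 by limma), and -0.13 without WT replicate 1. The start-site region of Per3 differed by -0.14 in pileup (SE 0.09, adjusted p = 1.00 by limma).

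In length, the start-site region of Per3 had the lowest p of the 40. Its length differed by 0.41 on the log2 scale (SE 0.11, adjusted p = 1.00 by limma), from a mean of 1162 ± 42.2 bp in WT (SD, n = 3) to 1553 ± 188 bp in Nedd4L-cKO (SD, n = 4). The opposite was seen at a region 20.5 kb upstream of the called Arntl starts but inside the gene span, chr7:113185489-113186971. This region was singled out after its values were seen. It covered 1082, 946, 911 and 1092 bp in the Nedd4L-cKO libraries and 1170, 1326 and 1278 bp in the WT libraries, a log2 difference of -0.32 (SE 0.10, adjusted p = 1.00 by limma). A region 13.1 kb inside Arntl was also apart in length, at 647 to 975 bp against 580 to 646 bp, and was likewise singled out after its values were seen. With log2 of the tags kept as a covariate, the log2 difference at Per3 was 0.41 (adjusted p = 0.897 by limma). At the region upstream of the called Arntl starts it was -0.32 (adjusted p = 0.961 by limma).

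Other genes of the pathway were read from a list of 17, which includes the ROR activators, the casein kinases Csnk1d and Csnk1e that phosphorylate period proteins, and the co-repressor parts Ncor1 and Hdac3. Promoters were called in all 7 libraries for 16 of the 17 and in none for Arntl2, the relative of Arntl. Tef, a relative of Dbp, had the highest mean pileup percentile among the 16, at 99.7. The median of the 16 was 87.3 by pileup and 45.1 by fold. None of the 16 promoter regions passed an adjusted p of 0.05 by limma. At an unadjusted p under 0.05 there were 2 of 16 by fold (3.92% of all regions), both higher in the Nedd4L-cKO libraries, and 0 by pileup (2.31%). The 2 became 0 without WT replicate 1, without WT replicate 2, with ranks among the shared regions alone and with a -log10 q of at least 5, where 11 were tested. These were Csnk1e, with a difference of 0.43 (SE 0.16, adjusted p = 1.00), and Bhlhe41, a repressor of CLOCK and ARNTL, with a difference of 0.51 (SE 0.19, adjusted p = 1.00), both named after their values were seen.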

How the data were processed

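ATAC-seq peaks of 7 libraries (4 Nedd4L-cKO, 3 WT) were analysed, with the groups as the labels give the genotype. Per the study's methods and the submitters' processing notes, the authors trimmed reads with Trimmomatic 0.39, aligned them to mm10 with BWA 0.7.17, filtered with SAMtools, removed duplicates with Picard 2.26.3 and called broad peaks with MACS2 2.2.7.1 for each library alone, without a control or pooling, shifting tags by -100 bp and extending them to 200 bp. The deposited pileup is a signal (mean coverage, not scaled to depth), and the deposited fold enrichment is a ratio to the local background. The q-value deposited by the authors is a -log10 value. Lengths in bp and the blocks of the deposited gapped list, which mark narrow peaks, were also used.

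Peaks on the 19 autosomes, X and Y were used. The libraries were distinct, with 0 identical peaks in any pair. Peaks overlapping by at least 1 bp were merged. A region took its highest peak in each library, and its length is the bases covered. Percentiles were taken among all peaks of the library. Start sites came from the RefSeq promoter table on GRCm38.p6, or else from the outer end of the span, a choice made after the Arntl calls were seen. The reference genome at hand was GRCm39, so exons and introns were not assigned. Tests were limma 3.58.1 in R 4.3.3 on normal scores and on log2 length, and exact permutation tests over 35 splits. Both were tested on simulated data. Other software was Python 3.11.15, numpy 2.4.6, pandas 2.3.3, scipy 1.17.1 and matplotlib 3.10.9. The depth was 14429374 to 20084685 tags kept per library.

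The 10 genes, the list of 17 and the markers were chosen with earlier results of these data known. Regions given in full were those at start sites, the 3 with the lowest p by fold and by pileup, and any that separated the genotypes. Genes like Nr1d1 were the 3 with the smallest mean absolute difference of both percentiles. Of the 17 genes, those highest and lowest by pileup were to be named. A gene under each of the last 2 rules is not reported here. Alternatives were a -log10 q of at least 5, 69302 peaks in every library, broad peaks with a narrow peak, other windows, flanks of 5 kb or none, other ranks, limma with trend and robust options, depth as a covariate, a replicate block and leaving out each library.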

Additional observations from a re-analysis of the deposited data

Results flagged for a closer look

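Among the 4 Nedd4L-cKO libraries, 6 of 67 measures had 1 library far from the others by Dixon's ratio, the gap of the end value to its neighbour over the whole range, above the critical value for 4 values. Chance flags about 1 in 20 such groups of continuous values. For counts of peaks that rate does not hold, because 3 equal counts and 1 other always give a ratio of 1. In length, these were the region downstream of Per1 (ratio 0.839, 1203 bp in replicate 1 against 1323 to 1346 bp), the start of Clock (0.924, 2261 bp in replicate 1 against 1841 to 1873 bp) and the region upstream of Dbp (0.901, 432 bp in replicate 3 against 1042 to 1109 bp). In number of peaks, they were the loci of Per2, Clock and Per1, each with 3 equal values and 1 library with 1 peak more or fewer (ratio 1).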

How the results depend on the processing

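No clock region passed an adjusted p of 0.05 by fold, pileup or length under any alternative, and none of the other genes tested (16, or 11 with a -log10 q of at least 5) did by fold or pileup. For peaks and covered bases per locus the smallest p was 0.05 or 0.0667 with a library left out and 0.25 with the replicate block, so that those tests could not pass. With broad peaks that hold a narrow peak, covered bases at Cry2 were higher in Nedd4L-cKO by a mean of 306 bp. The exact two-sided permutation p was then 0.0286, the smallest possible, and did not pass after adjustment over all loci. By the same test, p at Cry2 was 0.0571 with the same number of peaks, 0.229 with the span alone and 0.543 with a -log10 q of at least 5. The lowest adjusted p of a clock region over the alternatives was 0.874 by fold, 1.00 by pileup and 0.897 by length. Promoter calls in every library held for 10 of 10 genes, or for 9 with a -log10 q of at least 5 (without the inner starts of Per1) and for 9 with the outer end of the span as the only start (without Arntl), an alternative added after seeing the data. Regions present in 1 genotype alone went from 0 to 1 with a -log10 q of at least 5, which 39.0% of clock peaks and 53.2% of all peaks do not reach (over all regions, 28 of 46438 were then in all Nedd4L-cKO and no WT libraries, and 47 the reverse). The fold difference at the start of Nr1d1, near 0, turned positive with that minimum (0.0165), with the same number of peaks (0.00586) and without WT replicate 1 (0.0287), and ranged from -0.0596 to 0.0287 when single libraries were left out. The length difference at Per3 ranged from 0.33 to 0.47 and that upstream of the called Arntl starts from -0.37 to -0.28. Same-numbered libraries of the 2 genotypes correlated in their deviations at -0.122, 0.0363 and -0.124, and the other pairs at -0.151 to 0.156. The sources used here state no pairing, and these values cannot show whether there was one. With the replicate block, which leaves Nedd4L-cKO replicate 4, with no partner, without weight, 0 clock regions passed by any measure.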
